A study of Mus musculus with 8 samples.

Results

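Transcripts of 10 genes of the oxidant defence of the cell were followed in brown adipose tissue (BAT), the heat-producing fat of rodents. The genes were Nfe2l2 (which encodes NRF2), Keap1, Nqo1, Hmox1, Txnrd1, Prdx1, Srxn1, Sod1, Sod2 and Cat. They were chosen by name, as members of the NRF2 pathway, the thioredoxin and peroxiredoxin system, and the dismutases and catalase. All 10 were found among the 31053 genes of the count table.

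The libraries came from 8 male mice at 8 weeks of age, on a C57BL6/J background by the strain names in the study's methods. Its resource list gives the db/db mice by a stock number only, and whether that number is the same strain was not checked. The db/db animals (B6.BKS(D)-Leprdb/J) are homozygous for a loss-of-function allele of the leptin receptor and become obese and diabetic. The study names different vendors for WT and db/db mice in one place and the same vendor in another, so a difference in supplier between the genotypes is possible. Each genotype had 4 libraries, with replicate numbers 1 to 4, and tissue was taken after fasting. One sample field gives the cell type as stromal vascular fraction, although the tissue field gives BAT and adipocyte transcripts were abundant in every library, with summed markers of at least 7206 CPM (counts per 1000000 counts over the tested genes of a library, after TMM scaling) in WT and 2995 in db/db for the brown adipocyte list. Lepr itself was at 0 counts throughout, so its transcript gave no check of the genotypes. In bulk tissue, fewer cells of a type and less RNA per cell cannot be told apart.

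NRF2 is a transcription factor of the cap'n'collar family. KEAP1 binds it in the cytoplasm and delivers it to a CUL3 ubiquitin ligase. When oxidants or electrophiles modify KEAP1, NRF2 accumulates, pairs with a small MAF protein and binds antioxidant response elements near its target genes. Among those targets are detoxifying enzymes, the heme oxygenase HMOX1, and thioredoxin reductase with the peroxiredoxins and the sulfiredoxin that repairs them. Superoxide dismutases turn superoxide into hydrogen peroxide, in the cytosol (SOD1) and in mitochondria (SOD2), and catalase and the peroxiredoxins remove that peroxide. Brown fat is rich in mitochondria and peroxisomes, organelles that make and remove such oxidants.

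Because NRF2 acts through a short DNA element, the RefSeq promoter windows of GRCm38.p6, which run from 250 bases before a start site to 50 bases from it on, were searched on both strands for the core letters TGACNNNGC. Windows were held for 9 of the 10 genes, and 5 of the 9 carried the core: Nfe2l2, Txnrd1 at the second of its start sites, Prdx1, Srxn1 and Sod1. The windows of Keap1, Nqo1, Sod2 and Cat did not hold these letters, which says nothing on binding elsewhere. Over all 32851 windows 12.4% held the core, and over all 27025 genes with a window 13.99% did. This background was not matched for base content. The 5 windows with a match were 60.7% to 68.7% GC with 18 to 34 CpG, where the medians of all windows were 52.7% and 7. The Srxn1 match lies 28 bases past the start site, and the others lie before it. The bases after the Nfe2l2 start site were not found in its annotated transcripts. Of the other genes of the pathway lists described further on, 11 of the 44 with a window held it. The core can overlap the letters TGACTCA, which are also those of a binding site of AP-1 proteins, as it does in Prdx1. The stretches around the 5 matches are printed to show which letters fill the free positions of the core in each gene. Capitals mark the match, which in Txnrd1, Prdx1, Srxn1 and Sod1 lies on the opposite strand and is printed as its reverse complement. They come from chr2:75704869-75704913 (minus strand) for Nfe2l2, chr10:82859088-82859148 for Txnrd1, chr4:116685440-116685500 for Prdx1, chr2:152105542-152105570 for Srxn1 and chr16:90220680-90220740 for Sod1.
Nfe2l2: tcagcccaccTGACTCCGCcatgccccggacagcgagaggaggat
Txnrd1: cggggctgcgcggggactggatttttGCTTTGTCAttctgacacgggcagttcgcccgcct
Prdx1: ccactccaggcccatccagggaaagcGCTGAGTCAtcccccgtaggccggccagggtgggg
Srxn1: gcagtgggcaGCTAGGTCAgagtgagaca
Sod1: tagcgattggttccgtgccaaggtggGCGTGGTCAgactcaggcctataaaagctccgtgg

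The 120 bases before the start site are shown for Srxn1 and Cat, the genes with the largest rise and the largest fall among the 9 tested. The Srxn1 stretch (chr2:152105404-152105523) was 70.0% GC with 15 CpG, and the Cat stretch (chr2:103485154-103485273, minus strand) was 65.8% GC with 6 CpG. The Srxn1 stretch holds the letters TGAGTCAGC, marked in capitals, 45 bases before the start site. Its first 7 letters are the reverse complement of TGACTCA, so the AP-1 letters overlap this string too. This letter string was searched only after the sequence had been read, and 0.414% of all windows hold it. The Cat stretch holds neither string.
Srxn1 upstream: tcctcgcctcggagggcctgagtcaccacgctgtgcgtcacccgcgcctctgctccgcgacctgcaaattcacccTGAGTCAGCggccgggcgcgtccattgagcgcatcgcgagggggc
Cat upstream: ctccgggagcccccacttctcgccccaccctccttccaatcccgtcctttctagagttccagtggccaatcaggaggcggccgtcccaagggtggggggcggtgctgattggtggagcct

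WT libraries held between 2374079 and 2615009 counts and db/db libraries between 2382722 and 3240074, and a level of 3 counts, taken as the floor of detection, lay between 0.902 and 1.33 CPM. Floors and intervals of counts cover counting error only. One library, db/db replicate 1, stood apart from the others of its genotype, with summed skeletal muscle markers of 12158 CPM and mitochondrially encoded transcripts at 30.7% of its counts where its 3 counterparts had 36.8% to 37.6%. Its chi-square per degree of freedom against them was 11.3 to 14.03, against 5.80 to 7.72 among those 3. Without it, 1 of the 10 genes was still higher and 3 were lower in db/db. Over the 8 fits that each left out 1 library, the number lower ranged from 1 to 3. With every library kept, 15.8% of all tested genes were higher and 11.9% lower.

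The comparison of db/db with WT asked which of these genes differ in the BAT of obese, diabetic mice. Of the 10 genes, 9 passed the filter on low counts and were tested with edgeR's quasi-likelihood test among 9264 genes. Srxn1 was higher and Prdx1, Sod1 and Cat were lower in db/db, while Nfe2l2, Keap1, Hmox1, Txnrd1 and Sod2 did not pass an adjusted p of 0.05. Thus 4 of 9 were called, where 27.7% of all tested genes were. The shares of all tested genes that rose and fell were 15.8% and 11.9%. The median log2 fold change was −0.22 over the 9 genes and 0.01 over all tested genes. The 4 called genes also had no overlap between genotypes, as did 28.1% of all tested genes, and Nqo1, which was too low to test, had none either.

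**Figure D1:**
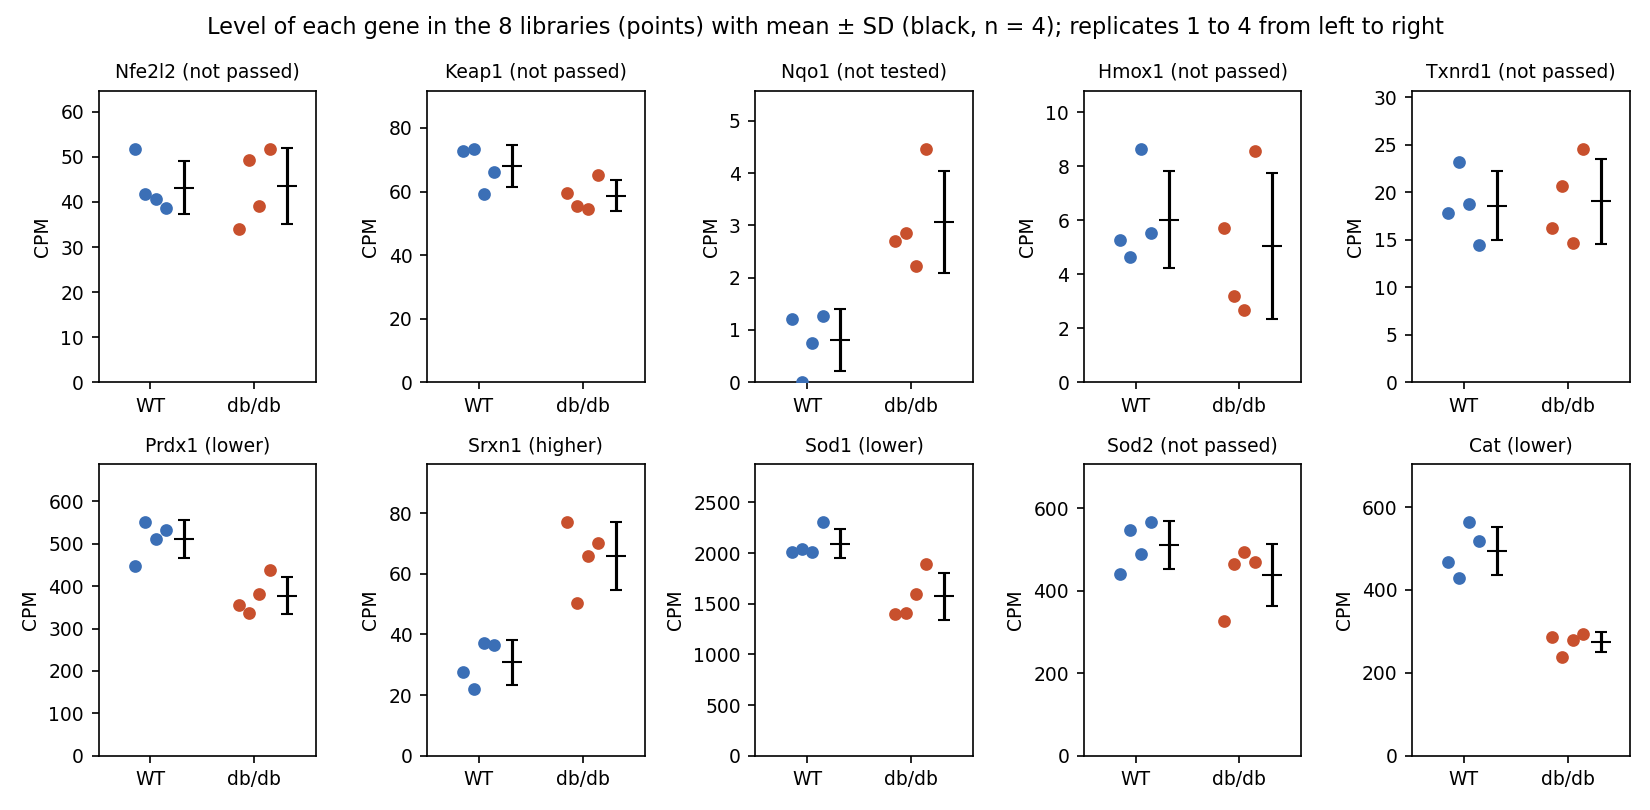
Level of each of the 10 genes in CPM (vertical axes, each starting at 0) in the 4 WT (blue) and 4 db/db (red) libraries, with the mean and SD in black (n = 4). The clouds separate for Nqo1, Prdx1, Srxn1, Sod1 and Cat and overlap for the other 5 genes.

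Nfe2l2, the gene of the regulator itself, did not pass the test. Nfe2l2 (ENSMUSG00000015839, mm10 chromosome 2, 75675513 to 75704641, minus strand) stood at 51.8, 41.8, 40.6 and 38.6 CPM in WT replicates 1 to 4 and at 34.0, 49.3, 39.0 and 51.7 CPM in db/db replicates 1 to 4. The highest WT and the highest db/db library were at nearly the same level, and the genotypes overlapped over most of their range. The log2 fold change was 0.01 (SE 0.17, 95% interval −0.36 to 0.38, adjusted edgeR p 0.9753). NRF2 is regulated largely through the stability of the protein, which transcript counts do not measure.

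Keap1 (ENSMUSG00000003308, chromosome 9, 21229730 to 21239361, minus strand), the sensor that holds NRF2 back, had 72.8, 73.4, 59.4 and 66.2 CPM in WT and 59.6, 55.4, 54.5 and 65.1 CPM in db/db. WT replicates 1, 2 and 4 were above all db/db libraries and WT replicate 3 lay among them. The log2 fold change of −0.21 did not pass the test (SE 0.14, 95% interval −0.51 to 0.08, adjusted edgeR p 0.287). An antisense gene, Gm16754, shares exon sequence with Keap1 and held 1 count in all libraries together. The ratio of Nfe2l2 to Keap1 counts within a library, which does not depend on scaling between libraries, was 0.21 higher in db/db on the log2 scale (exact two-sided permutation p = 0.20, adjusted p = 0.257 over 3 ratios).

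Nqo1 and Hmox1, classical targets of NRF2, were at the low end of what this depth can resolve. Nqo1 (ENSMUSG00000003849, chromosome 8, 107388225 to 107403206, minus strand), a quinone reductase often read as the measure of NRF2 activity, held 3, 0, 2 and 3 counts in WT and 9, 9, 5 and 12 counts in db/db. Every WT library was at or under the floor of 3 counts and every db/db library was above it. Pooled over libraries, 8 counts in WT stood against 35 in db/db, a ratio of scaled rates of 3.78 (95% exact interval 1.72 to 9.43). That interval covers counting error and not the spread between animals. In a fit of all 16410 genes with at least 1 count, its log2 fold change was 1.82 and did not pass the threshold (adjusted edgeR p 0.0842).

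Hmox1 (ENSMUSG00000005413, chromosome 8, 75093621 to 75100589), which encodes the inducible enzyme that opens the heme ring, held 13, 11, 23 and 13 counts in WT and 19, 10, 6 and 23 in db/db. In CPM these were 5.26, 4.64, 8.64 and 5.52 against 5.72, 3.18, 2.66 and 8.56. The lowest libraries were db/db replicates 2 and 3, yet db/db replicate 4 equalled the highest of WT within counting error. The coefficient of variation was 29.7% in WT and 53.8% in db/db, and the log2 fold change of −0.25 came with a wide interval, from −1.11 to 0.60 (SE 0.41, adjusted edgeR p 0.690).

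In the thioredoxin branch, the reductase did not pass the test, the peroxidase fell and the repair enzyme rose. Txnrd1 (ENSMUSG00000020250, chromosome 10, 82833951 to 82897712), the cytosolic thioredoxin reductase, was at 17.8, 23.2, 18.8 and 14.4 CPM in WT and 16.2, 20.7, 14.6 and 24.6 CPM in db/db. The genotypes overlapped over nearly their whole range, with a log2 fold change of 0.04 (SE 0.23, 95% interval −0.44 to 0.52, adjusted edgeR p 0.923).

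Prdx1 (ENSMUSG00000028691, chromosome 4, 116685544 to 116700822), a cytosolic peroxidase that draws its electrons from thioredoxin, was at 448, 551, 510.3 and 533 CPM in WT and at 355, 338, 381 and 439 CPM in db/db. All db/db libraries were below all WT libraries, with db/db replicate 4 just under WT replicate 1. The mean fell from 510.5 ± 44.6 to 378 ± 44.2 CPM (SD, n = 4 per genotype; log2 fold change −0.43, SE 0.13, adjusted edgeR p 0.0187). The call was lost without WT replicate 2, WT replicate 4 or db/db replicate 2, with adjusted p-values of 0.0576, 0.0524 and 0.0588. Processed pseudogenes nearly identical to Prdx1 exist, Gm21399 at 98.3% and Gm7204 at 97.5% over 597 bases, so the count of Prdx1 is uncertain to the extent that reads were shared with them.

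Srxn1 (ENSMUSG00000032802, chromosome 2, 152105516 to 152111376), whose product sulfiredoxin restores peroxiredoxins that peroxide has over-oxidised, was the only one of the 9 tested genes that rose. It was at 27.5, 21.9, 37.2 and 36.5 CPM in WT and at 77.0, 50.3, 66.0 and 70.3 CPM in db/db. The lowest db/db library lay above the highest WT library. The mean rose from 30.8 ± 7.36 to 65.9 ± 11.4 CPM, 2.14-fold (SD, n = 4 per genotype; log2 fold change 1.09, SE 0.19, 95% interval 0.69 to 1.497, adjusted edgeR p 0.000336). Its fold change stood at percentile 90.0 of all tested genes. With each library left out in turn the log2 fold change stayed between 0.95 and 1.21 and passed in all 8 fits. The call was lost with the skeletal muscle marker level in the model, as described further on (0.83, adjusted edgeR p 0.172). Set against its substrate's transcript, 3.98 to 7.29 Srxn1 counts were found per 100 Prdx1 counts in WT libraries and 14.9 to 21.7 in db/db libraries. This ratio was formed after the values had been seen and carries no test.

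**Figure D2:**
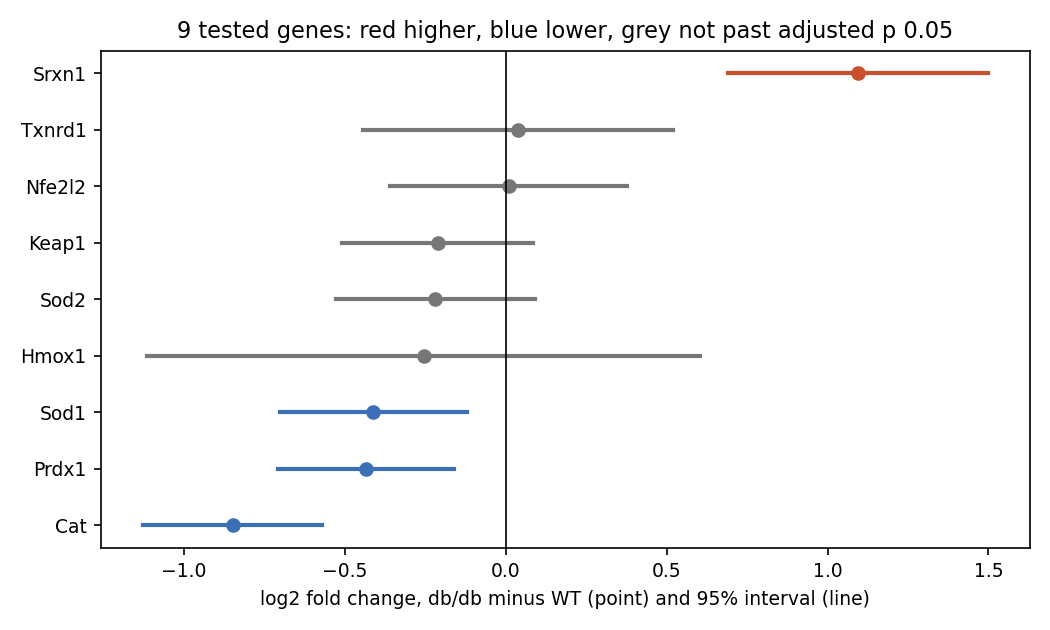
Log2 fold change, db/db minus WT (horizontal axis), of the 9 tested genes with its 95% interval, from the edgeR fit over 9264 genes. Srxn1 at 1.09 lies to the right of 0, Sod1, Prdx1 and Cat at −0.41, −0.43 and −0.85 lie to the left, and the intervals of the other 5 genes span 0.

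Of the dismutases and catalase, Sod1 and Cat fell and Sod2 did not pass the test. Sod1 (ENSMUSG00000022982, chromosome 16, 90220754 to 90226329), the copper and zinc dismutase of the cytosol, was at 2012, 2043, 2011 and 2303 CPM in WT and at 1393, 1406, 1597 and 1895 CPM in db/db. The genotypes did not overlap, and 3 of the WT libraries were almost level while the db/db libraries were spread. The mean fell from 2092 ± 141 to 1573 ± 234 CPM (SD, n = 4 per genotype; log2 fold change −0.41, SE 0.14, 95% interval −0.70 to −0.12, adjusted edgeR p 0.0335). This call was lost in 4 of the 8 fits that left out a library, those without WT replicates 2 or 4 or db/db replicates 2 or 3, with adjusted p-values of 0.0582, 0.106, 0.0962 and 0.0567. It was also lost when at least 10 counts were required in every library (adjusted p 0.0567). A processed pseudogene, Gm8566, matches Sod1 at 97.8% over 465 bases and was not analysed here.

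Sod2 (ENSMUSG00000006818, chromosome 17, 13006846 to 13040063), the manganese dismutase of mitochondria, was at 439.9, 547, 490.4 and 566 CPM in WT and at 327, 466, 493 and 469 CPM in db/db. Only db/db replicate 1, the library with the most muscle transcripts, was below all WT libraries, and the other 3 lay within the WT range. The log2 fold change was −0.22 (SE 0.15, 95% interval −0.53 to 0.09, adjusted edgeR p 0.289), and −0.11 without db/db replicate 1. Annotated transcripts of 20 other genes matched Sod2 at 95% identity or more. The longest matches were to Rps6ka2, with 3110 bases and 3 counts in all, and to a lincRNA, with 3108 bases and no row in the counts used here. Dld, with the most counts of the 20 at 4576, matched over 188 bases. How reads that fit several of these genes were counted was not tested, and the Sod2 counts are uncertain to that extent. The ratio of Sod2 to Sod1 counts within a library was 0.19 higher in db/db on the log2 scale (exact two-sided permutation p = 0.257, adjusted p = 0.257).

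Cat (ENSMUSG00000027187, chromosome 2, 103453849 to 103485160, minus strand), the catalase of peroxisomes, showed the widest gap of the genes that fell. It was at 467, 429.6, 563 and 518 CPM in WT and at 287, 239, 278 and 294 CPM in db/db. The highest db/db library was far below the lowest WT library, and the spread in db/db was narrow, with a coefficient of variation of 8.91%. The mean fell from 494.5 ± 58.4 to 274.6 ± 24.5 CPM, so that WT was 1.80-fold higher (SD, n = 4 per genotype; log2 fold change −0.85, SE 0.13, 95% interval −1.13 to −0.57, adjusted edgeR p 0.000115). Its fold change stood at percentile 5.21 of all tested genes. It passed in all 8 fits that left out a library, between −0.92 and −0.79.

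Within libraries, there were 21.03 to 28.01 Cat counts per 100 Sod1 counts in WT and 15.5 to 20.6 in db/db. The difference of the log2 ratio was −0.42, with an exact two-sided permutation p of 0.0286, the smallest that 4 against 4 libraries can give, and an adjusted p of 0.0857 over the 3 ratios. It was lower in 4 of 4 db/db libraries than in any WT library, but did not pass after adjustment.

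Markers of several cell types differed between the same libraries, where 15.8% of all tested genes were higher and 11.9% lower in db/db. The summed level of the 14 skeletal muscle markers was 459 to 1625 CPM in WT and 2429 to 12158 CPM in db/db, and all 14 were higher, among them Acta1 (log2 fold change 3.05) and Tnnc2 (3.05). Of 11 macrophage markers 8 were higher, with sums of 158 to 220 CPM against 744 to 1312 CPM. Lyz2, at a log2 fold change of 2.79, and C1qa, at 2.07, were the most abundant of them. Brown adipocyte markers summed to 7206 to 8927 CPM in WT and 2995 to 5522 CPM in db/db. The 4 of 7 that could be tested were all lower, including Cidea (−1.24) and Ucp1 (−0.65).

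Fibroblast markers rose in 5 of 5 cases, from sums of 475 to 587 CPM to 903 to 1889 CPM, with Dcn at a log2 fold change of 0.89 and Col3a1 at 2.06. Beside this and the next counts, 15.8% of all tested genes rose and 11.9% fell. Endothelial markers fell in 2 of 5 cases, with sums of 228 to 308 CPM against 174 to 205 CPM. Kdr was at −0.74 and Pecam1, at −0.31, did not pass. General adipocyte sums overlapped, at 11956 to 20566 CPM against 16393 to 21909 CPM, with 2 of 5 markers higher, among them Fabp4 (0.65), and 1 lower, Lpl (−0.46). With 1 library left out, the Fabp4 call held in 3 of 8 fits (adjusted p up to 0.122), that of Lpl in 5 (up to 0.0693) and that of Ucp1 in 6 (up to 0.0707). Erythroid sums overlapped, at 3106 to 8715 CPM against 6472 to 17009 CPM, with 1 of 5 markers higher, near the share of all tested genes. Neither Hbb-bs (0.81) nor Hba-a1 (0.78) passed the threshold. With 1 library left out, Hbb-bs passed in 4 of 8 fits and Hba-a1 in 2. None of the 5 lymphocyte markers could be tested, and their sums were 0 to 6.75 CPM in WT and 0 to 12.3 CPM in db/db, with Cd79a, alone among the markers of all 8 lists, at 0 in every library.

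With the muscle marker level added to the model as a covariate, only Cat among the 10 genes stayed past the threshold (log2 fold change −0.90, adjusted edgeR p 0.0301). Srxn1 then had a log2 fold change of 0.83 (adjusted p 0.172), Prdx1 −0.41 (0.385) and Sod1 −0.30 (0.602), and 502 of all tested genes were called in place of 2568. Of the genes that were not called, Nfe2l2 moved from 0.01 to 0.58 (adjusted p 0.291) and Txnrd1 from 0.04 to 0.51 (0.560), while Keap1 was at −0.14, Hmox1 at 0.09 and Sod2 at −0.11. No db/db library was as low in muscle transcripts as any WT library, so muscle content and genotype cannot be told apart in that fit. Whether the shifts in macrophage, brown adipocyte and fibroblast transcripts had a part in the changes of the 4 genes was not tested.

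**Figure D3:**
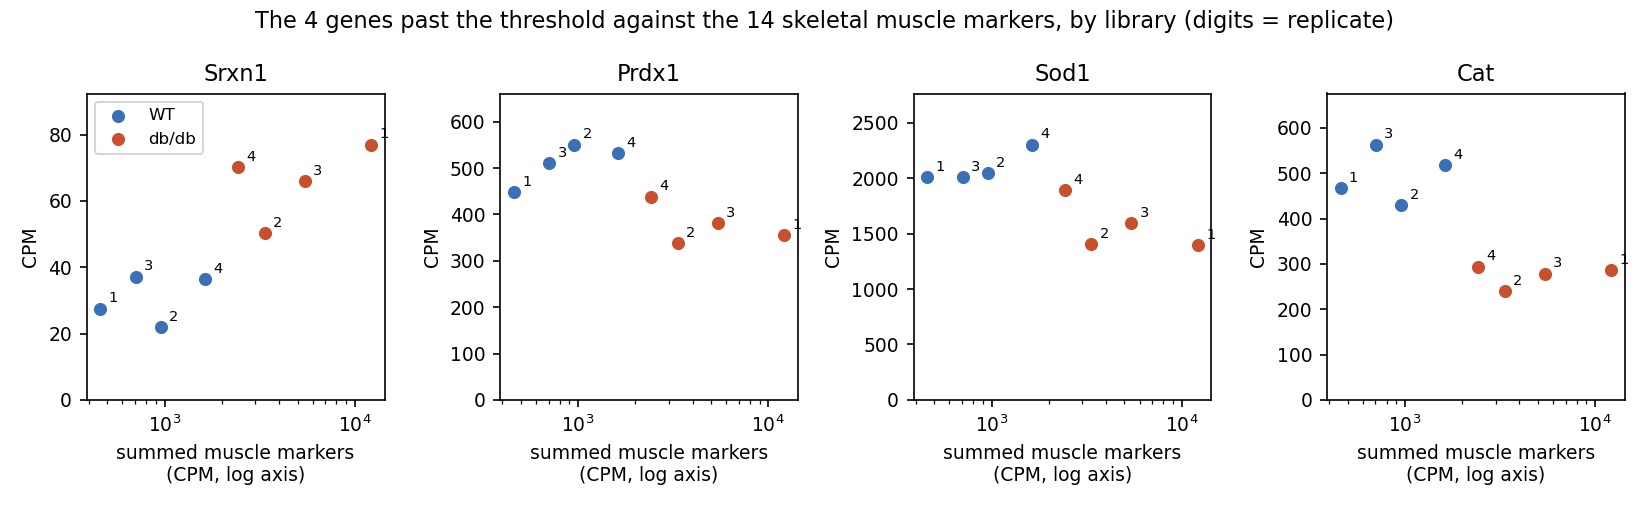
CPM of Srxn1, Prdx1, Sod1 and Cat (vertical axes, from 0) against the summed CPM of 14 skeletal muscle markers (horizontal log axis) in each WT (blue) and db/db (red) library, with the replicate number as a digit. Muscle sums of 459 to 1625 in WT and 2429 to 12158 in db/db do not overlap, so each panel falls into a WT and a db/db cluster.

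Of 8 further genes of NRF2 control, 2 rose and 1 fell, with a median log2 fold change of −0.01, beside 27.7% of all tested genes called, so the count is no result about this list. Mafk, one of the small MAF proteins that pair with NRF2, was at 14.97, 13.5, 13.9 and 16.1 CPM in WT and at 40.9, 31.5, 39.4 and 41.7 CPM in db/db. The db/db libraries were far above all WT libraries (log2 fold change 1.39, SE 0.18, adjusted edgeR p 2.62e-05), and the related Mafg, at 0.12, and Maff, at −0.14, did not pass.

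Nfe2l1, the paralogue of Nfe2l2 that controls proteasome genes and has a known role in brown fat, rose from 137 ± 15.8 to 214 ± 28.1 CPM (SD, n = 4 per genotype; log2 fold change 0.64, adjusted edgeR p 0.00203). Sqstm1, whose product p62 can pull KEAP1 away from NRF2 into autophagy, fell from 330.5 ± 24.8 to 243 ± 15.3 CPM (SD, n = 4 per genotype; log2 fold change −0.44, adjusted edgeR p 0.0112). Cul3, the scaffold of the ligase that KEAP1 serves, was at −0.47 and just missed the threshold (adjusted edgeR p 0.0516). Exons of Mafk overlap Tmem184a and those of Sqstm1 overlap Mrnip, on the other strand in each case, so both counts are uncertain.

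Of 19 other NRF2 targets, 17 were tested, and 7 rose, 2 fell and 8 did not pass, with a median log2 fold change of 0.27. Of all tested genes, 15.8% rose and 11.9% fell. The genes that rose were Slc48a1, Blvra, Ftl1, Fth1, Ephx1, Cbr3 and Gstm1, and those that fell were Cbr1 and Gsta4. Slc48a1, a heme transporter of lysosomes, was at 118, 108, 116 and 131 CPM in WT and at 427, 297, 369 and 383 CPM in db/db. Even the lowest db/db library was far above the highest WT library (log2 fold change 1.64, SE 0.14, adjusted edgeR p 1.92e-07). The biliverdin reductase Blvra was at 0.79, and the ferritin light and heavy chains Ftl1 and Fth1, which store iron, at 0.60 and 0.46.

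Ephx1, an epoxide hydrolase, rose from 4.89 ± 0.995 to 19.995 ± 3.58 CPM (SD, n = 4 per genotype; log2 fold change 2.03, adjusted edgeR p 2.56e-05). The carbonyl reductases went apart, Cbr3 at 1.13 (adjusted edgeR p 0.0308) and Cbr1 at −0.62 (0.00794). The glutathione transferases did too, Gstm1 at 0.50 and Gsta4, which conjugates lipid aldehydes such as hydroxynonenal, at −0.86 (0.000478). Gsta4 fell from 109.8 ± 18.6 to 60.5 ± 7.95 CPM (SD, n = 4 each). The glutathione synthesis genes Gclc (−0.67) and Gclm (−0.42) did not pass, and Slc7a11, the cystine carrier, had 0 counts in every library. Exon overlaps with other genes make Slc48a1, Ephx1 and Ftl1 uncertain, and the Cbr3 call was lost without any one of 5 libraries (adjusted p up to 0.0966).

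**Figure D4:**
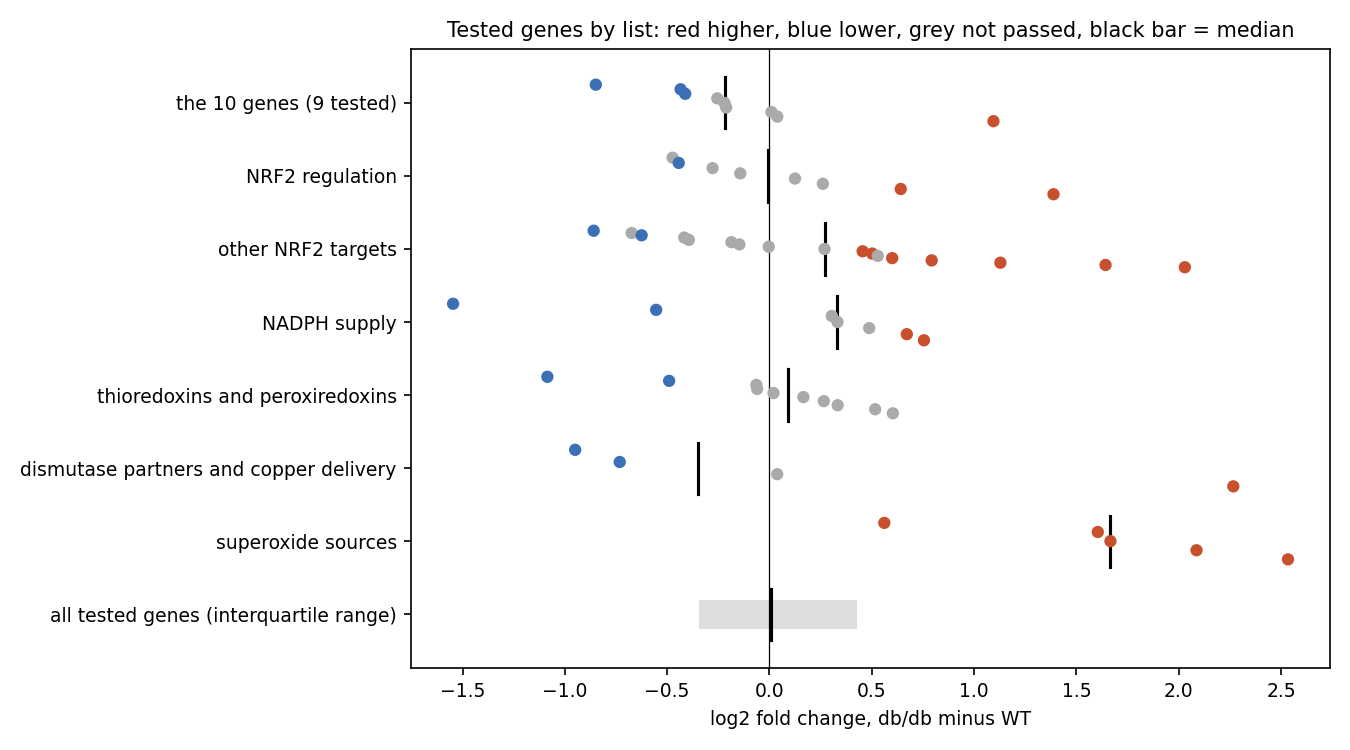
Log2 fold change, db/db minus WT (horizontal axis), of every tested gene in 7 lists, with red for higher, blue for lower and grey for not past adjusted p 0.05. A black bar marks each list's median and the grey box the interquartile range of all tested genes. The superoxide sources have the highest median, 1.67, and the dismutase partners the lowest, −0.35.

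NADPH feeds both thioredoxin reductase and glutathione reductase. Of 8 genes that supply it, 7 were tested and 2 rose and 2 fell, with a median log2 fold change of 0.33, where 27.7% of all tested genes were called. In the pentose phosphate pathway, Pgd, of the oxidative arm that makes NADPH, rose from 94.6 ± 13.2 to 159 ± 34.3 CPM (SD, n = 4 per genotype; log2 fold change 0.75, adjusted edgeR p 0.00202). G6pdx, the entry enzyme of that arm, was at 0.33 and did not pass (adjusted edgeR p 0.155).

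Both listed enzymes of the non-oxidative arm fell. Tkt was at 1952, 1959, 1240 and 1791 CPM in WT and at 506, 708, 445 and 717 CPM in db/db, with a wide gap between genotypes (log2 fold change −1.55, SE 0.18, adjusted edgeR p 7.92e-06). Taldo1 was at −0.55 (adjusted edgeR p 0.0104). Idh2, the mitochondrial isocitrate dehydrogenase that yields NADPH, rose from 367 ± 29.4 to 585 ± 127 CPM (SD, n = 4 per genotype; log2 fold change 0.67, adjusted edgeR p 0.00303). Nnt, the mitochondrial transhydrogenase that C57BL6/J mice are known to lack in full form, held 1 count in WT and 4 in db/db, each in a single library.

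Among 10 other thioredoxin and peroxiredoxin genes none rose and 2 fell, with a median log2 fold change of 0.09, a share below the 27.7% of all tested genes that were called. Txnrd3, a reductase best known from testis, fell from 23.0 ± 6.04 to 10.8 ± 4.44 CPM (SD, n = 4 per genotype; log2 fold change −1.09, adjusted edgeR p 0.00831). The mitochondrial thioredoxin Txn2 fell by 0.49 on the log2 scale (adjusted edgeR p 0.0270), a call lost without any one of 5 libraries (adjusted p up to 0.0766). The cytosolic thioredoxin Txn1 was at −0.06, and Prdx2 to Prdx6 lay between −0.06 and 0.52 and did not pass.

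Of 4 genes of the extracellular dismutase and of copper delivery, Sod3 rose, Ccs and Slc31a1 fell and Atox1 did not pass, against 27.7% called among all tested genes. Sod3, secreted and bound to matrix, was at 37.6, 27.9, 27.0 and 24.2 CPM in WT and at 152, 154, 125 and 131 CPM in db/db. Every db/db library was far above every WT library (log2 fold change 2.27, SE 0.16, adjusted edgeR p 2.77e-08). Per 100 Sod1 counts there were 1.05 to 1.87 Sod3 counts in WT and 6.89 to 10.96 in db/db, a ratio formed after the values had been seen.

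Ccs, the chaperone that loads copper into SOD1, was at 69.2, 74.3, 61.6 and 79.4 CPM in WT and at 28.6, 29.9, 43.4 and 46.1 CPM in db/db. It fell without overlap (log2 fold change −0.95, SE 0.18, adjusted edgeR p 0.000612). There were 3.06 to 3.64 Ccs counts per 100 Sod1 counts in WT and 2.05 to 2.72 in db/db, a ratio also formed after the values had been seen and not tested. The copper importer Slc31a1 was at −0.73 (adjusted edgeR p 0.0351, lost in 5 of 8 fits that left out a library, at up to 0.111), and the chaperone Atox1, at 0.04, did not pass. Fibroblast markers and most macrophage markers were also higher in db/db, and the part of these cell types in the rise of Sod3 was not tested.

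On the side that makes superoxide, 5 of the 7 genes reported here could be tested and all 5 rose, with a median log2 fold change of 1.67, where 15.8% of all tested genes rose. They were the phagocyte NADPH oxidase subunits Cybb, Cyba and Ncf1, its activator Rac2, and xanthine dehydrogenase (Xdh). Cybb, the catalytic subunit, was at 5.26, 6.75, 7.14 and 8.06 CPM in WT and at 43.3, 20.7, 22.2 and 29.4 CPM in db/db. The genotypes were far apart and db/db replicate 1 was the highest (log2 fold change 2.09, SE 0.28, adjusted edgeR p 2.59e-05).

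Cyba, its membrane partner, was at 2.53 (adjusted edgeR p 1.58e-05). Ncf1, a cytosolic subunit, was at 1.605 (0.0107), with exons that overlap Gtf2ird2. Rac2, at 1.67 (adjusted p 0.0331), rested on db/db replicate 1, which held 20.2 CPM where the rest of that genotype had 2.55 to 6.32, and was at 0.76 without it (adjusted p 0.299). Xdh was at 0.56 (0.0260). Of 10 tested macrophage markers 8 rose over the same libraries, with a median log2 fold change of 2.12 over the 10, while Cd14 was at −1.03 (adjusted p 0.0997) and Ptprc at 1.16 (0.0625), and their part in the rise of the oxidase subunits was not tested.

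In the fit with the muscle covariate, Mafk, Ephx1, Slc48a1, Tkt, Sod3 and Cyba stayed past the threshold, with adjusted edgeR p-values from 1.76e-05 (Sod3) to 0.0264 (Mafk). The calls of 14 other pathway genes were lost, and those of Blvra, Ftl1, Fth1, Gstm1, Cbr1 and Xdh were not followed in that fit. Nfe2l1 (log2 fold change 0.61), Sqstm1 (−0.41), Gsta4 (−0.76), Slc31a1 (−0.76), Ccs (−0.80), Ncf1 (1.53) and Taldo1 (−0.43) had folds close to those without the covariate, and that of Idh2 was larger (0.86), with adjusted edgeR p-values from 0.0608 (Idh2) to 0.417 (Taldo1). Smaller folds were found for Cybb (1.39, adjusted p 0.0558), Cbr3 (0.79), Pgd (0.46), Txnrd3 (−0.32) and Txn2 (−0.16). Rac2 turned to −0.15 (adjusted p 0.954).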

How the data were processed

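Per the labels, bulk RNA was extracted from BAT of 4 WT and 4 db/db mice, and a commercial service made the libraries (NEGEDIA Digital mRNA-seq, single-end, 75 cycles). The authors deposited raw counts per Ensembl gene. The study's methods name bbduk, STAR and HTSeq-count on mm10, whereas the submitters' processing notes list Trimmomatic, HISAT2 and DESeq2 with GRCm38 and mm10. Use of strand or of molecular identifiers is not given in the sources used here, so overlapping genes are uncertain and PCR copies may be counted. A deposited table of normalised log2 values and a sample sheet were not used here. No batch is given in the labels.

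Identifiers were matched to GENCODE M21 (30934 of 31053 genes). Genes with too few counts were removed with filterByExpr (minimum count 10, minimum total 15) and libraries were scaled by TMM. CPM are counts per 1000000 counts over the tested genes after this scaling. Genotype was fitted alone, with edgeR's quasi-likelihood test (version 4.0.16, R 4.3.3), and Benjamini-Hochberg adjusted p-values were held to 0.05. Standard errors were derived from the F statistic. The study gives 4 mice per genotype, taken here as 1 per library. Count ratios within a library (pseudocount 0.5) were compared by exact two-sided permutation. In simulated data in which 200 genes had a log2 change of 1, edgeR found 138, with 9 false calls, among 9183 genes, and made 0 calls among 9274 genes when none was changed. The changed genes were drawn from well-counted ones, with a random direction. Far more genes, 2568, were called in the real data, so these rates do not carry over to them. Promoter sequences and windows are those of RefSeq. Copies were sought by alignment of transcripts, at 95% identity or more.

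Named were the 10 genes, up to 4 called genes of each pathway list by size of the log2 fold change, Nnt, and the 2 most abundant tested markers of each cell type list. Other genes of these lists that are named were chosen after their values were seen. One gene of the superoxide source list is not reported here and was left out of its counts. The members and lists were chosen with earlier results of these data known. Alternatives were DESeq2 1.42.0, limma-voom (limma 3.58.1), 4 other scalings, 2 other count filters, a replicate block, a skeletal muscle covariate (mean log2 CPM of 14 markers, prior count 2), pseudocounts of the ratios, and each library left out in turn. Replicate numbers do not pair animals: same-numbered libraries came from different mice, and the correlations of their deviations from the mean of each genotype were −0.08 to 0.05.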

Additional observations from a re-analysis of the deposited data

Results flagged for a closer look

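Of 80 groups of 4 libraries examined for a value that stood apart by Dixon's 95% criterion, 8 were flagged, where chance gives 4. Among the 10 genes, Sod1 in WT replicate 4 was at 2303 CPM against 2011 to 2043 CPM in the other WT libraries, and the Sod1 call was lost without it (adjusted p 0.106). Sod2 in db/db replicate 1 was at 327 CPM against 466 to 493 CPM, in the library with the highest muscle marker sum.

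In the pathway lists, Ephx1 in WT replicate 4 was at 6.37 CPM against 4.22 to 4.51 CPM, and Idh2 in WT replicate 3 was at 323 CPM against 378 to 384 CPM. Nnt stood at 0.424 CPM in WT replicate 4 and at 1.203 CPM in db/db replicate 1, with 0 counts in the other libraries of each genotype, values that rest on 1 and 4 counts. Summed erythroid markers in db/db replicate 4 were 17009 CPM against 6472 to 7024 CPM, and summed lymphocyte markers in db/db replicate 1 were 12.3 CPM against 0 to 0.887 CPM.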

How the results depend on the processing

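The counts of 1 gene higher and 3 lower among the 10, and of 2568 called genes in all, kept within 1.5 times under DESeq2, limma-voom, 4 other scalings and both other filters, though 2 and not 3 were lower where at least 10 counts were required in every library, and those scalings moved the median log2 fold change of all genes by less than 0.1. The skeletal muscle covariate gave 0 higher, 1 lower and 502 called genes, and moved the split of calls from 1466 higher and 1102 lower to 377 and 125. It turned Rac2 to −0.15. With 1 library left out, the number of the 10 genes lower in db/db ranged from 1 to 3 and was 1 without WT replicate 2, WT replicate 4 or db/db replicate 2, 1 was higher in each of the 8 fits, and called genes numbered 2236 to 2483. Leave-one-out differences of the log2 ratios ranged from 0.12 to 0.33 (Nfe2l2 over Keap1), 0.11 to 0.27 (Sod2 over Sod1) and −0.50 to −0.34 (Cat over Sod1). The replicate block, whose numbers mark no shared animal, gave 2557 called genes with 1 of the 10 higher and 3 lower. It ended the call of Cbr3 (adjusted p 0.0544) and added Hbb-bs (0.0256) and Hba-a1 (0.0434). Those 2 genes also passed in the fit of every gene with at least 1 count (adjusted edgeR p 2.03e-05 and 3.84e-05). Hbb-bs passed too where at least 10 counts were required in every library (0.0386). Over the named genes, leaving out a library ended a call in 36 of 344 fits and added one in 6, and limma-voom ended that of Rac2 (0.162). The causes of these changes were not tested. Nqo1 and Hmox1 rested on at most 23 counts in a library.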

Other observations

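Genes of the pathway lists that were too low to test, other than Nqo1, Nnt and Slc7a11, are given here by value. Osgin1 was at 0, 1.69, 1.503 and 1.27 CPM in WT and at 2.11, 3.18, 0.443 and 1.86 CPM in db/db, with overlap. Ncf4, a cytosolic subunit of the phagocyte oxidase, was at 1.21, 0, 0.752 and 1.27 CPM in WT and at 5.11, 1.59, 0 and 4.09 CPM in db/db, and a db/db library was among the lowest. Nox4, an oxidase that makes hydrogen peroxide, was at 1.21, 2.11, 2.25 and 3.82 CPM in WT and at 9.63, 4.45, 5.76 and 1.86 CPM in db/db, where 3 of 4 db/db libraries were above all WT libraries.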
